A study of Mus musculus with 6 samples.

Results

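Hyaluronan is a long, unsulfated sugar polymer of the extracellular matrix, and its synthesis, breakdown and binding were followed here through 9 genes, chosen by name, in immortalized mouse pancreatic fibroblasts. They are the synthases Has1, Has2 and Has3, the precursor enzyme Ugdh, the hyaluronidases Hyal1 and Hyal2, the receptors Cd44 and Hmmr, and the hyaluronan-binding proteoglycan Vcan. All 9 are listed among the 14831 genes of the deposited count table, and all 9 passed the filter on low counts that left 14289 genes for testing.

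Hyaluronan is made at the plasma membrane, where the synthases join UDP-glucuronic acid and UDP-N-acetylglucosamine and extrude the growing chain. Hyaluronidases and other depolymerases cut it, cell surface receptors such as CD44 bind it, and versican links it into larger aggregates. The stroma of pancreatic ductal adenocarcinoma is known for its high hyaluronan content, to which fibroblasts contribute.

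The series holds 6 RNAseq libraries of such fibroblasts, 3 labelled WT and 3 labelled Gli2-/-;Gli3-/- (labelled KO), all of mixed strain and grown to confluence in separate wells of DMEM with calf serum. In the study's methods, control lines received Ad5 CMV-eGFP and Lenti dsRed, knockout lines received Ad5 CMV-eGFP and Ad5 CMV-Cre, and infected cells of both kinds were sorted by flow cytometry. Cre was therefore driven by the CMV promoter in culture, both groups had been immortalized first, and the number of clones behind the wells is not given in the sources used here. Nothing in the labels says that wells came from separately made lines, so p-values measure only the spread between wells.

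Library totals ranged from 31728420 to 41035931 counts. The targeted genes went against the labels: Gli2 had 809 to 944 counts in the WT-labelled libraries and 1926 to 2316 in the KO-labelled ones, and Gli3 had 392 to 416 and 1404 to 1637. The study screened its infected lines for recombination, and reports that qPCR and western blot showed Gli deletion. Its Gli2/Gli3 KO fibroblasts did not respond to Hedgehog stimulation, and its qPCR of Ccl5, Il6 and Il11 went as its RNAseq did. The tables used here do not hold these qPCR and western blot measurements. Counts over whole genes do not show whether the floxed exons were among the exons read. Gli1, a target gene of Hedgehog signaling, had 40, 50 and 37 counts in the WT-labelled libraries and 4, 10 and 13 in the KO-labelled ones. Groups are therefore named by their labels throughout, and each direction given is that of labels against which the Gli2 and Gli3 counts run. Whether the labels hold was not tested here. Of 10 fibroblast markers, 8 are listed, with a summed level of 44822 to 47236 CPM (counts scaled to the size of the library) in the WT-labelled libraries and 36783 to 38533 CPM in the KO-labelled ones. Col1a1, Col1a2, Col3a1 and Vim lead this sum, and Pdpn and Fap are not listed. Thy1 was higher in the KO-labelled libraries, with 19, 15 and 9 counts against 4, 1 and 0, and did not pass the filter on low counts. Of the 7 markers tested, 4 were called lower in the KO-labelled libraries, Dcn (log2 fold change -1.55), Col3a1 (-0.94), Pdgfra (-0.90) and Pdgfrb (-0.66), and Col1a1 (0.01), Col1a2 (-0.19) and Vim (-0.13) were not. Mesothelial markers (Msln, Wt1 and Upk3b, 3 of 3 listed) summed to 20.6 to 23.2 CPM and 239 to 241 CPM, with Msln at means of 2.37 and 166 CPM and Upk3b at 18.3 and 68.2 CPM. Of 6 epithelial markers 3 are listed, summing to 4.29 to 5.23 CPM and 23.9 to 24.4 CPM. Most of that sum is Krt7, at means of 4.38 and 23.1 CPM, while Cdh1 had 0.340 and 0.719 CPM and Krt8 was lower still. Of 5 macrophage markers 2 are listed, at 2.11 to 2.29 CPM and 2.37 to 2.90 CPM. For 4 acinar markers 1 is listed, Cela1, at 7.36 to 8.84 CPM and 13.6 to 15.4 CPM, and of 4 endothelial markers 0 are. The part of these markers in the results was not tested.

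Across the 9 genes, Has2 and Hmmr rose and Has1 and Vcan fell in the KO-labelled libraries, and the other 5 did not pass both limits. In bulk RNA, fewer cells of a type and less RNA per cell cannot be told apart, here and in all results that follow. A gene was called where the quasi-likelihood test of edgeR gave an adjusted p under 0.05 and the change was at least 1.5-fold. By this rule 17.7% of all tested genes were called, 11.6% higher and 6.10% lower, against 4 of the 9 hyaluronan genes, 2 higher and 2 lower. With no limit on the fold, 5 of the 9 genes passed, Has2 and Hmmr higher and Has1, Vcan and Ugdh lower, where 58.7% of all genes did, 29.9% higher and 28.8% lower. The 3 libraries of each group did not overlap for these 5 genes, and 64.2% of all tested genes had no overlap. The median log2 fold change was 0.06 over the 9 genes and 0.00197 over all genes tested.

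**Figure D1:**
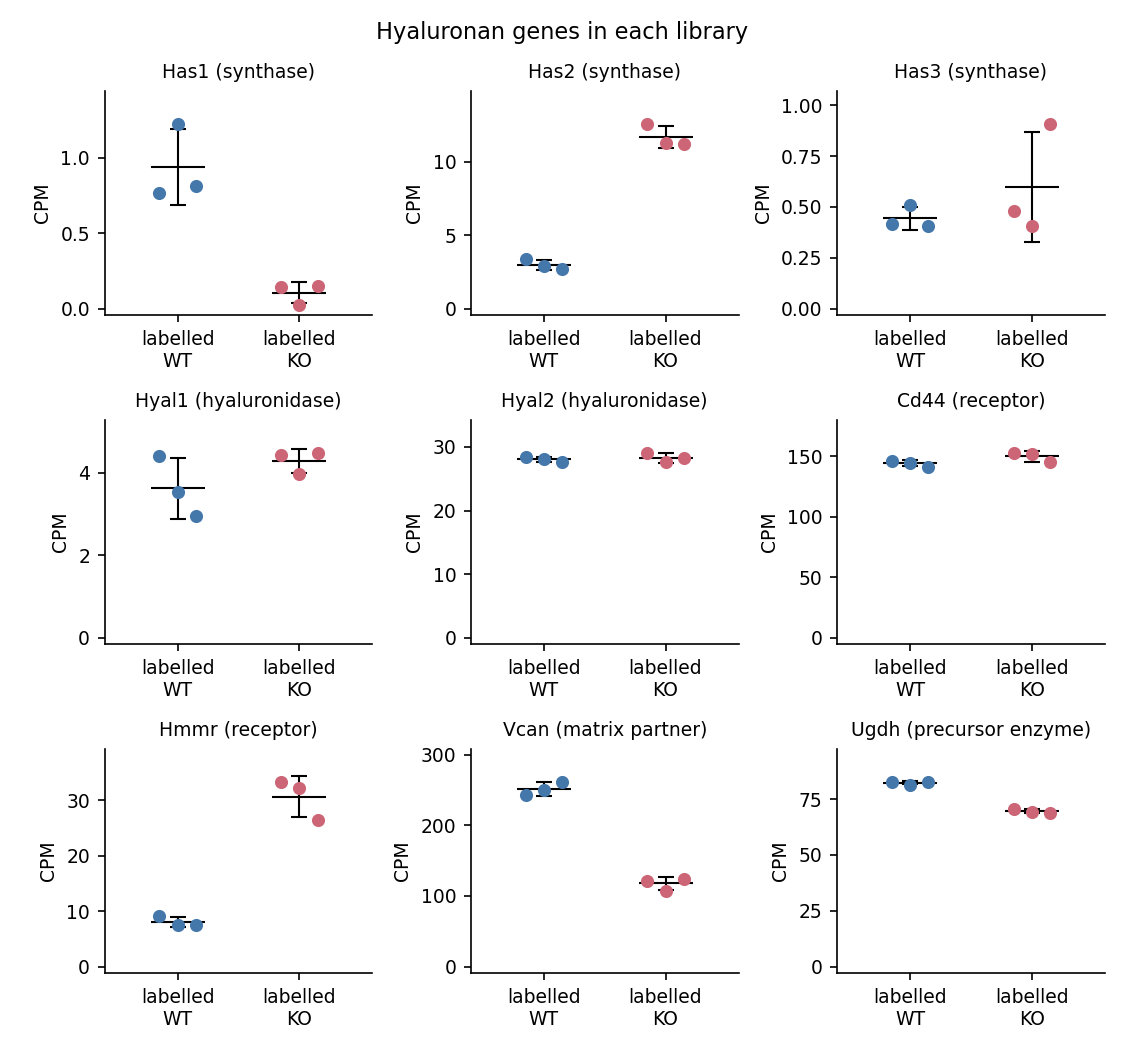
Level of each of the 9 hyaluronan genes in CPM (linear axis) in the 3 libraries labelled WT (blue) and the 3 labelled KO (red); points are libraries, horizontal bars are means and error bars are SD. Has2 and Hmmr sit higher and Has1, Vcan and Ugdh lower in every library labelled KO, while the points of Has3, Hyal1, Hyal2 and Cd44 overlap between the groups.

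**Figure D2:**
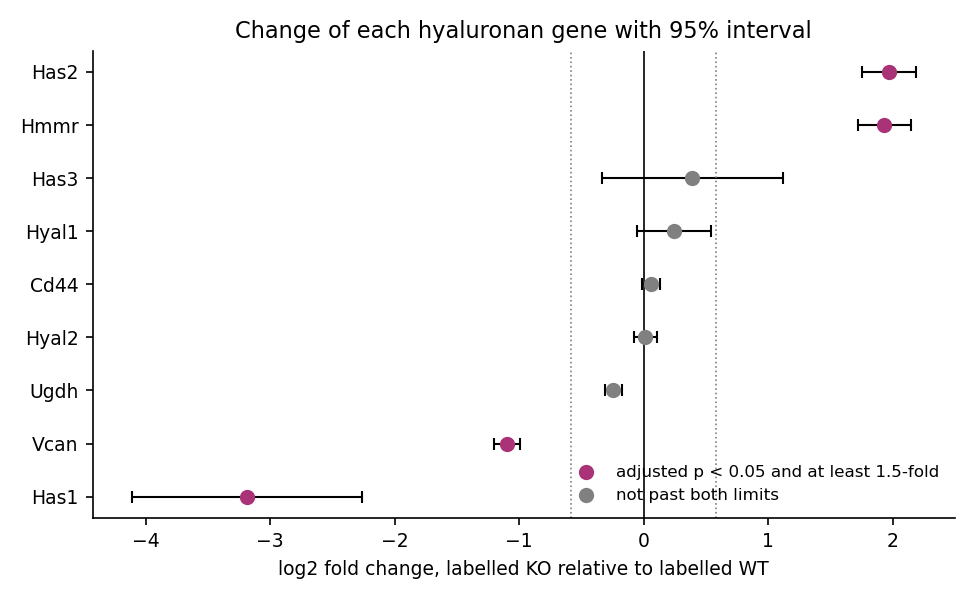
Log2 fold change of each gene, KO-labelled over WT-labelled libraries, with its 95% interval; purple points pass an adjusted p of 0.05 and the 1.5-fold limit, which the dotted lines mark. Has2 (1.97) and Hmmr (1.93) lie to the right, Vcan (-1.10) and Has1 (-3.18) to the left, and the widest intervals are those of Has1 and Has3, the genes with the fewest reads.

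Promoter windows of 7 of the 9 genes are in the RefSeq table (build GRCm38.p6); Has2 and Has3 have no entry there. The 250 bases before the annotated start are shown for the called genes that have one, so that their changes can be read beside their sequence. Capitals mark CCAAT boxes (CCAAT or ATTGG), GC boxes (GGGCGG or CCGCCC) and the cell cycle element CHR (TTTGAA or TTCAAA), each searched on both strands.
Hmmr, chr11:40733438-40733687, minus strand: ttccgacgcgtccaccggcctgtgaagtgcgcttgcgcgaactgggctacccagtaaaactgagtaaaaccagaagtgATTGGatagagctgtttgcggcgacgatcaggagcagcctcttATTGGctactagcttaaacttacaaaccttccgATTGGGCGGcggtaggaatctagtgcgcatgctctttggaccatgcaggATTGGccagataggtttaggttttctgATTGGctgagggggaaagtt
Vcan, chr13:89742513-89742762, minus strand: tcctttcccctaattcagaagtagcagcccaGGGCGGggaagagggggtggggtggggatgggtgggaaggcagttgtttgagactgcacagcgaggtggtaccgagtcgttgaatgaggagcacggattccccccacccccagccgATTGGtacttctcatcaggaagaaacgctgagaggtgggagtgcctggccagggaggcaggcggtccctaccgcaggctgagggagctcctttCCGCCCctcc
Has1, chr17:17855189-17855438, minus strand: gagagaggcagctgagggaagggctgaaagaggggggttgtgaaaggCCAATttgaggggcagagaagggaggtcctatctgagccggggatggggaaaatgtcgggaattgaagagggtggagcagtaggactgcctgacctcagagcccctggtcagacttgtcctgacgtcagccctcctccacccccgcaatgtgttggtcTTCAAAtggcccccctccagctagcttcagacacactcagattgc

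The Hmmr window holds 5 CCAAT boxes, all read as ATTGG, and 1 GC box that shares 2 bases with one of them. At least 1 CCAAT box is in 33.8% of the 32851 windows of this length in the table, and 5 or more are in 0.213%. Vcan and Has1 hold 1 CCAAT box each, Vcan also 2 GC boxes and Has1 also 1 CHR element, letters that 32.7% and 16.0% of windows hold. The 9-letter GLI site (GACCACCCA or TGGGTGGTC) was found in 0 of the 7 genes' windows and in 0.225% of all windows, and a TATA box (TATAAA or TTTATA) in 0 of 7 and 12.4%. These letters were chosen after the sequences were seen, and a match or its absence describes the window alone.

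The synthases moved in opposite directions. Has2 (ENSMUSG00000022367.7, chromosome 15 from 56665627 to 56694539, as all positions by GENCODE M21 on build GRCm38), a synthase that is essential in embryonic mesenchyme, had 105, 97 and 86 counts in the WT-labelled libraries and 445, 470 and 369 in the KO-labelled ones. Scaled for depth, these are 3.35, 2.90 and 2.69 CPM against 12.6, 11.3 and 11.2 CPM. Every library labelled KO was thus above every library labelled WT, with little spread inside either group. The fitted log2 fold change was 1.97 (SE, the standard error, 0.10; edgeR adjusted p = 3.82e-09), or 3.92-fold higher.

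Has1 (ENSMUSG00000003665.7, chromosome 17 from 17843323 to 17855205), another of the synthase isoforms, went the other way from a low level. It had 24, 41 and 26 counts in the WT-labelled libraries and 5, 1 and 5 in the KO-labelled ones, or 0.766, 1.22 and 0.814 CPM against 0.141, 0.0240 and 0.151 CPM. The groups did not overlap, but 1 library labelled KO lies under the floor of 3 counts, which is 0.0720 to 0.0957 CPM in these libraries. Its log2 fold change was -3.18 (SE 0.42, edgeR adjusted p = 3.23e-05), or 9.09-fold lower, and ran from -3.53 to -2.65 when single libraries were left out.

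Has3 (ENSMUSG00000031910.14, chromosome 8 from 106870242 to 106884566), which encodes the third synthase, was near the limit of detection in both groups. Its counts were 13, 17 and 13 in the WT-labelled libraries and 17, 17 and 30 in the KO-labelled ones, and the groups overlapped. The log2 fold change of 0.39 had a 95% interval from -0.34 to 1.12 (edgeR adjusted p = 0.338), which holds changes of either sign. The value rests on the library labelled KO with 30 counts, without which it was -0.0081. Exons of Has3 share 352 of 6380 bases with Chtf8 on the opposite strand.

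Compared per length of exon, Has2 was the highest of the synthases in both groups. The 3 genes together summed to 1.03, 1.03 and 0.880 CPM per kilobase in the WT-labelled libraries and to 3.07, 2.73 and 2.81 in the KO-labelled ones, means of 0.980 ± 0.0866 and 2.87 ± 0.178 (SD, n = 3 each). Has2 made up 77.1%, 66.1% and 72.3% of that sum in the WT-labelled libraries and 96.5%, 97.5% and 93.7% in the KO-labelled ones. The share of Has1 went from between 16.5% and 26.2% to between 0.194% and 1.19%, and that of Has3 from between 6.34% and 7.69% to between 2.34% and 5.06%. A sum 2.93 times as high was thus made up almost wholly of Has2 reads, under labels that Gli2 and Gli3 contradict.

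**Figure D3:**
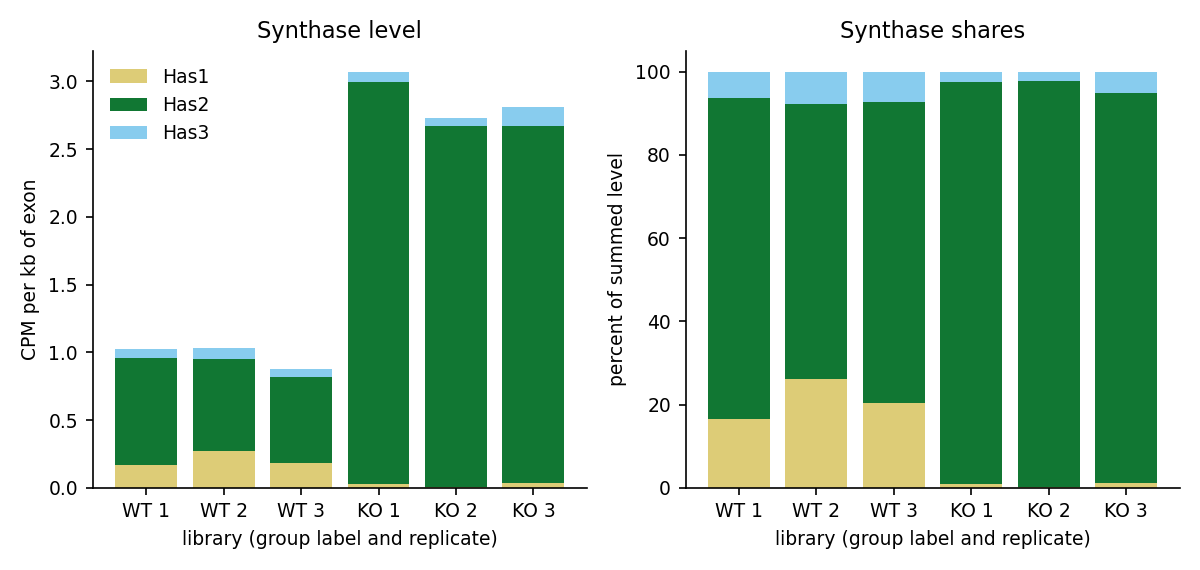
Has1, Has2 and Has3 in each library, as CPM per kilobase of annotated exon (left) and as percent of the summed level of the 3 genes (right). The stacked bars reach 0.880 to 1.03 in the WT-labelled libraries and 2.73 to 3.07 in the KO-labelled ones, and Has2 fills 93.7% or more of each bar labelled KO.

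An antisense RNA lies across the start of Has2. Has2os (ENSMUSG00000086541.8, chromosome 15 from 56689944 to 56778399), a noncoding transcript read from the opposite strand, had 59, 58 and 62 counts in the WT-labelled libraries and 115, 142 and 120 in the KO-labelled ones. It rose as well, with a log2 fold change of 0.89 (SE 0.12, edgeR adjusted p = 4.71e-05). Per 100 counts of Has2os there were 139 to 178 counts of Has2 in the WT-labelled libraries and 308 to 387 in the KO-labelled ones. Their exons share 182 bases, 4.30% of those of Has2 and 11.2% of those of Has2os, and whether counting used strand is not given in the sources used here.

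Ugdh (ENSMUSG00000029201.14, chromosome 5 from 65413221 to 65435949), which oxidizes UDP-glucose to UDP-glucuronic acid, had 82.7, 81.4 and 82.7 CPM in the WT-labelled libraries and 70.6, 69.3 and 68.7 CPM in the KO-labelled ones. The groups were apart and both were tight, with coefficients of variation of 0.912% and 1.40%. The log2 fold change of -0.24 (SE 0.03, edgeR adjusted p = 2.59e-05) is a difference of -15.5%, under the fold limit. Exons of Ugdh share 158 of 6752 bases with Gm43552 on the same strand. A list of 9 other genes of UDP-sugar supply was all tested, and 0 were called at the 1.5-fold limit, with log2 fold changes between -0.36 and 0.33 and a median of -0.04. By adjusted p alone 7 of them passed, 4 higher and 3 lower, beside 58.7% of all genes, 29.9% higher and 28.8% lower. Gfpt1, the rate-limiting enzyme of the hexosamine pathway that yields UDP-N-acetylglucosamine, averaged 128 ± 2.65 CPM and 146 ± 6.59 CPM (SD, n = 3 each), 1.14-fold higher in the KO-labelled libraries.

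Neither hyaluronidase was called. Hyal2 (ENSMUSG00000010047.12, chromosome 9 from 107567945 to 107572779), a membrane-anchored enzyme that cuts long hyaluronan into fragments, had 28.4, 28.2 and 27.6 CPM in the WT-labelled libraries and 29.1, 27.6 and 28.2 CPM in the KO-labelled ones. These values overlap, and the 95% interval of the difference runs from -5.5% to 7.6% (edgeR adjusted p = 0.824). A change of 1.5-fold in either direction is outside that interval.

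Hyal1 (ENSMUSG00000010051.15, chromosome 9 from 107576927 to 107581710), the lysosomal hyaluronidase next to Hyal2 on the chromosome, had 138, 118 and 94 counts in the WT-labelled libraries and 157, 165 and 148 in the KO-labelled ones, or 4.40, 3.52 and 2.94 CPM against 4.43, 3.96 and 4.48 CPM. One library labelled WT lies among the KO-labelled ones. Its log2 fold change of 0.24 had a 95% interval from -0.06 to 0.54 (edgeR adjusted p = 0.151). On the same strand, Naa80 shares 1920 of the 3777 exon bases of Hyal1, and Hyal3 shares 159. How reads on those bases were assigned is not given in the sources used here. Per kilobase, Hyal2 accounted for 87.8% to 91.5% of the summed level of both enzymes in all 6 libraries.

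Of 10 other genes of hyaluronan breakdown, 6 are listed and tested. By adjusted p alone 2 were higher and 2 lower, and 1 was called, beside 17.7% of all genes: Cemip, which encodes a secreted hyaluronan-binding protein needed for hyaluronan depolymerization in fibroblasts. It had 6834, 7025 and 6752 counts in the WT-labelled libraries and 23468, 29506 and 24701 in the KO-labelled ones. That is 213 ± 4.39 CPM against 706 ± 42.8 CPM (SD, n = 3 each), with no overlap. The log2 fold change was 1.73 (SE 0.04, edgeR adjusted p = 4.06e-12), or 3.31-fold higher in the KO-labelled libraries. The whole-gene counts of Gli2 and Gli3 run against these labels. Cemip2, a relative of Cemip, had a log2 fold change of 0.29 and Hyal3 of 0.19. Among the lysosomal glycosidases that finish the digestion, Hexa had 0.06 and Gusb -0.26. These 4 genes did not reach the fold limit, and Hexa had the highest CPM among them (182 ± 3.40 and 189 ± 3.72). The median log2 fold change over the 6 genes was 0.12.

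Of the receptors, Hmmr was called and Cd44 was not. Cd44 (ENSMUSG00000005087.17, chromosome 2 from 102811141 to 102901665), the main cell surface receptor for hyaluronan, had 146, 145 and 141 CPM in the WT-labelled libraries and 153, 152 and 145 CPM in the KO-labelled ones. The groups overlap, at a level per kilobase above that of 83.6% of tested genes in the WT-labelled libraries and 85% in the KO-labelled ones. Its 95% interval runs from -0.9% to 9.2% (edgeR adjusted p = 0.144). Counts are summed over the whole gene, so the standard and variant exon forms of Cd44 were not told apart.

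Hmmr (ENSMUSG00000020330.16, chromosome 11 from 40701395 to 40733422) encodes RHAMM, a hyaluronan receptor that inside the cell binds microtubules and the mitotic spindle. It had 285, 253 and 240 counts in the WT-labelled libraries and 1181, 1343 and 874 in the KO-labelled ones, or 9.09, 7.55 and 7.52 CPM against 33.4, 32.2 and 26.5 CPM. All libraries labelled KO were higher, and within them replicate 3 was the lowest. With a 95% interval from 1.72 to 2.14 on the log2 scale, Hmmr was 3.82-fold higher in the KO-labelled libraries (edgeR adjusted p = 3.85e-09). Per kilobase, the ratio of Hmmr to Cd44 went from 0.0697 ± 0.00684 to 0.255 ± 0.0236 (SD, n = 3 each).

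Mitotic genes moved with Hmmr. All 14 listed genes of mitosis were tested and called, 14 higher and 0 lower, where 11.6% of all genes were called higher. Their log2 fold changes ran from 1.04 (Cdk1, the mitotic kinase) to 1.92 (Ccnb1, its cyclin), with a median of 1.58. Of these 0 exceeded that of Hmmr, but Ccnb1 (SE 0.11) and Hmmr (1.93, SE 0.10) were closer than the SE of either. Ccnb1 averaged 8.86 ± 1.87 CPM and 33.4 ± 3.01 CPM (SD, n = 3 each), and Ube2c, an enzyme of the anaphase-promoting complex, 6.65 ± 1.75 CPM and 23.0 ± 2.27 CPM. For Cenpf, a kinetochore protein, Plk1, a mitotic kinase, and Kif11, a spindle motor, the log2 fold changes were 1.78, 1.75 and 1.72. The libraries within a group were ordered alike as well: replicate 1 was the highest labelled WT for 13 of the 14 genes, and replicate 3 the lowest labelled KO for 14 of 14, as both were for Hmmr. As a share of the summed CPM of these 14 genes, Hmmr was 3.72%, 3.77% and 3.73% in the WT-labelled libraries and 5.11%, 5.16% and 4.71% in the KO-labelled ones, while that sum was 2.85-fold higher. The part of the mitotic genes in the change of Hmmr was not tested. Of 12 mitotic genes with a promoter window, 10 hold a CCAAT box, beside 33.8% of all windows, 10 a GC box, beside 32.7%, and 6 a CHR element, beside 16.0%. A gene counted if any of its windows held the letters, while the shares are of single windows, 32851 for 27025 genes. The Hmmr window shown above holds the first and second of these and not the third. Its CHR element lies 8 to 13 bases after the start, past that window. Windows of 300 bases run past the start. There Hmmr, Has1 and 9 of the 12 mitotic genes hold a CHR element, beside 17.9% of all windows. Has1, unlike the others, was lower in the KO-labelled libraries. At this length 10 of the 12 hold a CCAAT box and 10 a GC box, beside 37.4% and 35.7%. The letters were chosen after the sequences were seen, and their part in any change was not tested.

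**Figure D4:**
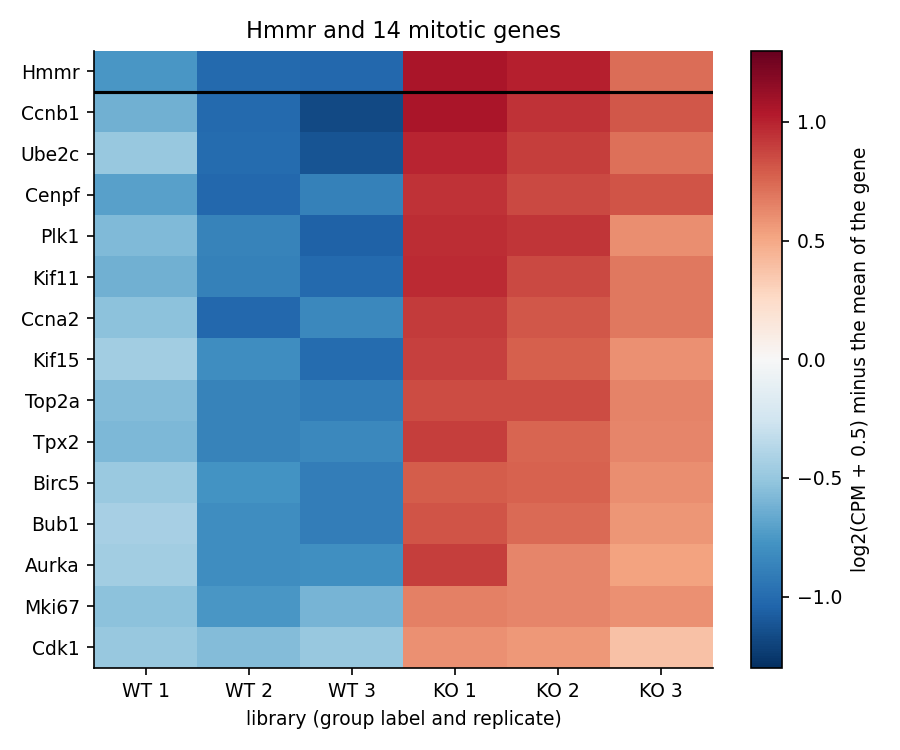
Hmmr (top row) and 14 mitotic genes in each library, as log2(CPM + 0.5) minus the mean of the gene over the 6 libraries; red is above and blue below that mean. Every gene is blue in the 3 libraries labelled WT and red in the 3 labelled KO, and replicate 3 labelled KO is the palest of its group.

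Over the 6 libraries and 10518 other genes with at least 100 counts in each, the profiles closest to Hmmr were those of Gas2l3, Kif20a and Anln, by the root-mean-square difference of gene-centred log2 CPM (0.0573, 0.0575 and 0.0642). For Vcan they were Nrep, Rims2 and Il17rd (0.0374, 0.0442 and 0.0467). Their log2 fold changes were 1.98, 1.84 and 1.82 for the first 3 and -1.07, -1.10 and -1.17 for the others, against 1.93 for Hmmr and -1.10 for Vcan. The choice by profile fixed in advance that these values are close.

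Of 13 genes for linkers, sheddases, splicing factors and ligands of Cd44, 12 were tested. Of these 1 was called higher and 3 lower, where 11.6% and 6.10% of all genes were, and 8 passed by adjusted p alone, where 58.7% of all genes did. The median log2 fold change was -0.22. Ezr, which encodes ezrin, a linker between the CD44 tail and actin, had 752, 808 and 786 counts in the WT-labelled libraries and 5715, 7157 and 5416 in the KO-labelled ones. With no overlap it was 6.84-fold higher in the KO-labelled libraries (log2 fold change 2.77, SE 0.04, edgeR adjusted p = 2.64e-14). The other linkers of its family did not reach the fold limit, Rdx (radixin) with a log2 fold change of 0.18 and Msn (moesin) with -0.37, where Msn averaged 372 CPM in the WT-labelled libraries and 288 CPM in the KO-labelled ones. The listed epithelial and mesothelial markers were higher in the same libraries, the epithelial sum being mostly Krt7, as given above. Spp1, which encodes the CD44 ligand osteopontin, fell from 382, 327 and 290 counts to 205, 128 and 119 (log2 fold change -1.33), and Cd74, which signals together with CD44, from 90, 109 and 85 to 47, 40 and 30 (-1.46). Mmp9 was the other gene called lower, with 10 counts or fewer in each library labelled KO. Of the genes not called, Mmp14, a membrane protease that sheds CD44, had the highest CPM, 599 ± 4.82 and 453 ± 12.1 (SD, n = 3 each).

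Among 23 other hyaluronan-binding genes, 12 are listed and 10 were tested, with 3 called higher and 2 lower, beside 11.6% and 6.10% of all genes, and a median log2 fold change of -0.06. Tnfaip6, which encodes TSG-6, an enzyme that moves heavy chains of inter-alpha-inhibitor onto hyaluronan, had 5, 8 and 5 counts in the WT-labelled libraries and 66, 76 and 45 in the KO-labelled ones. It is named after its values were seen, with a log2 fold change of 3.16 (SE 0.27, edgeR adjusted p = 6.77e-07). The heavy chain genes Itih2 and Itih3 were lower: Itih2 went from 881, 913 and 844 counts to 520, 609 and 519, and Itih3 from 54, 47 and 51 counts to 10, 24 and 16. Tlr2, an innate receptor reported to sense hyaluronan fragments, rose from 1.94 ± 0.384 CPM to 6.84 ± 0.385 CPM (SD, n = 3 each), and the link protein gene Hapln4 from 9.24 ± 0.404 CPM to 14.4 ± 1.28 CPM. Tlr4, another innate receptor reported to sense hyaluronan fragments, had 35.0 ± 1.48 CPM and 26.3 ± 0.998 CPM, with no overlap and a log2 fold change of -0.41 that stayed under the fold limit (edgeR adjusted p = 9.43e-06). The endocytic receptor gene Stab2 and the membrane receptor gene Layn were not called, with log2 fold changes of -0.47 and 0.16. C1qbp, a mitochondrial protein also known as hyaluronan-binding protein, had the highest CPM of the genes not called (71.6 ± 0.248 and 74.6 ± 3.53).

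Versican fell while its proteases Adamts5 and Adamts1 rose. Vcan (ENSMUSG00000021614.16, chromosome 13 from 89655312 to 89742509), a large chondroitin sulfate proteoglycan whose amino-terminal domain binds hyaluronan, had 7601, 8370 and 8351 counts in the WT-labelled libraries and 4302, 4489 and 4083 in the KO-labelled ones. In CPM these are 243, 250 and 262 against 121, 108 and 124, so that no library labelled KO came near the lowest labelled WT. The log2 fold change was -1.10 (SE 0.05, edgeR adjusted p = 1.13e-09), so that its level fell by 53.2% in the KO-labelled libraries, whose labels the Gli2 and Gli3 counts go against. The ratio of the level of Has2 to that of Vcan, per kilobase, was 0.0406 ± 0.00607 in the WT-labelled libraries and 0.340 ± 0.0271 in the KO-labelled ones (SD, n = 3 each). The splice forms of Vcan, which carry different numbers of chondroitin sulfate chains, were not told apart.

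Of 11 genes for versican cleavage and binding partners, 7 were tested, with 2 called higher and 1 lower, beside 11.6% and 6.10% of all genes, and a median log2 fold change of 0.30. Adamts5, a protease that cleaves aggrecan and versican, had 2103, 2078 and 1956 counts in the WT-labelled libraries and 9424, 12223 and 10284 in the KO-labelled ones. It was 4.57-fold higher (log2 fold change 2.19, SE 0.06, edgeR adjusted p = 5.93e-12). Adamts1 passed the limit narrowly, at 145 ± 4.84 CPM and 222 ± 19.3 CPM and 1.53-fold, and Adamts9 stayed under it with a log2 fold change of 0.30. Adamts15 was called lower, from 31, 52 and 35 counts to 13, 23 and 15, and Adamts4 had a log2 fold change of -0.13. Fbln2, a matrix protein that binds versican, averaged 2870 ± 139 CPM and 4141 ± 105 CPM, the highest level of the genes not called, with a change of 1.44-fold.

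Of 21 genes for enzymes that build chondroitin sulfate, the sugar chains of versican, 19 are listed and 18 were tested. By adjusted p alone 14 passed, 5 higher and 9 lower, beside 58.7% of all genes. With the fold limit 1 was called, beside 17.7% of all genes: Chst7, a sulfotransferase, which rose from 5.21 ± 0.445 CPM to 10.1 ± 0.527 CPM (SD, n = 3 each; edgeR adjusted p = 1.05e-06). The others had log2 fold changes between -0.37 (Dsel) and 0.55 (Csgalnact1), and the median was -0.13. Dse, an epimerase that turns chondroitin into dermatan sulfate, had 202 ± 4.02 CPM and 222 ± 1.79 CPM, above Chpf, a chain-polymerizing factor, in the KO-labelled libraries (188 CPM). Over all 7 lists, 28 of 76 tested genes were called, 22 higher and 6 lower, beside 17.7% of all genes, and 14 of the 22 are the mitotic genes. Without these, 14 of 62 were called, or 22.6%, 8 higher and 6 lower.

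**Figure D5:**
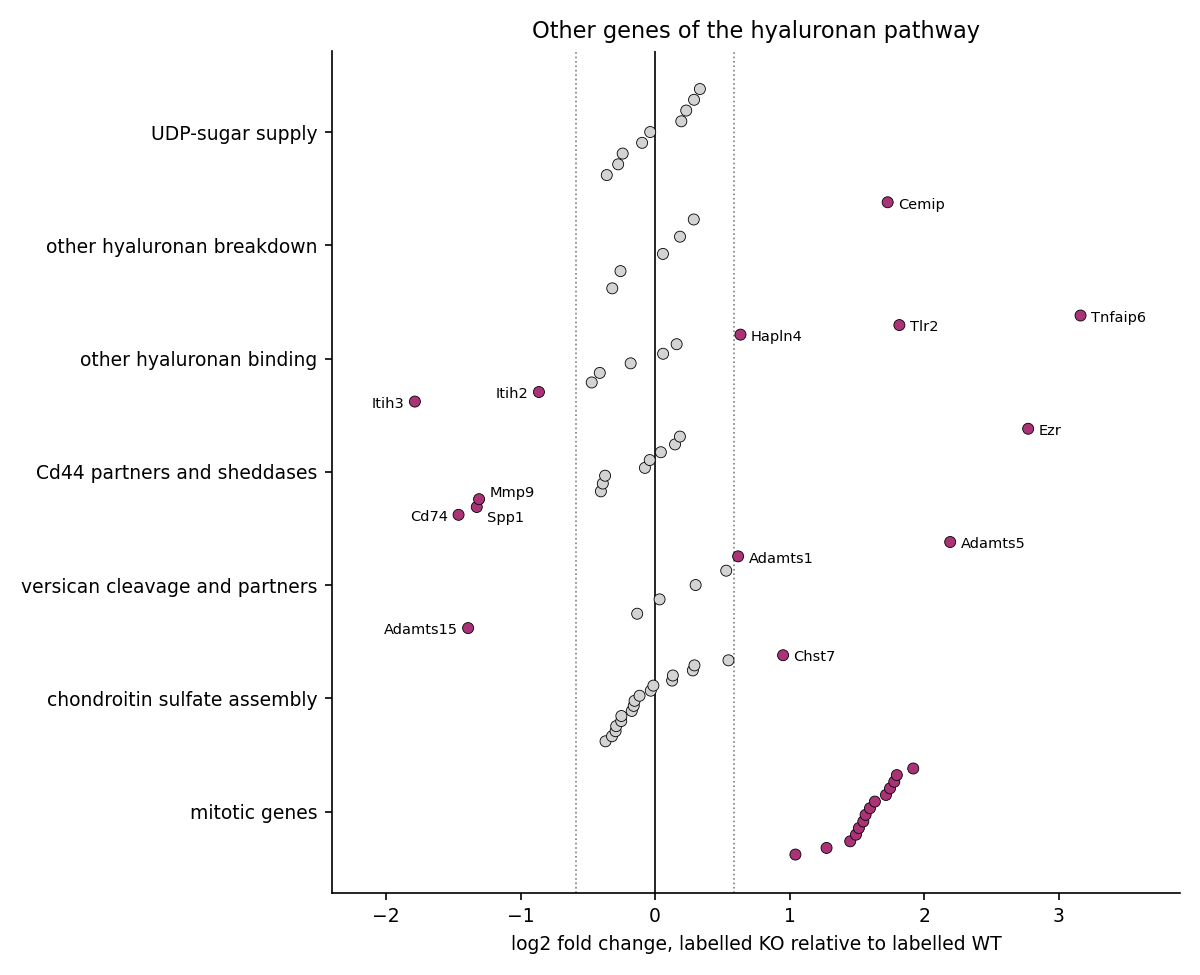
Log2 fold change of the 76 other genes tested, by list, KO-labelled over WT-labelled libraries; purple points pass an adjusted p of 0.05 and the 1.5-fold limit (dotted lines) and are named outside the mitotic list. Genes of UDP-sugar supply and chondroitin sulfate assembly cluster around 0, Tnfaip6 (3.16), Ezr (2.77), Adamts5 (2.19) and Cemip (1.73) lie far to the right, and the 14 mitotic genes lie between 1.04 and 1.92.

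Ordered by level per kilobase, the 9 genes differed widely. In the WT-labelled libraries the order was Cd44 (21.3 ± 0.365 CPM per kilobase), Vcan (17.4 ± 0.664), Ugdh (12.2 ± 0.111), Hyal2 (8.51 ± 0.128), Hmmr (1.48 ± 0.166), Hyal1 (0.959 ± 0.195), Has2 (0.703 ± 0.0794), Has1 (0.207 ± 0.0557) and Has3 (0.0695 ± 0.00876), as means ± SD over 3 libraries. In the KO-labelled libraries it was Cd44 (22.1 ± 0.647), Ugdh (10.3 ± 0.145), Hyal2 (8.59 ± 0.231), Vcan (8.13 ± 0.598), Hmmr (5.65 ± 0.679), Has2 (2.76 ± 0.183), Hyal1 (1.14 ± 0.0766), Has3 (0.0939 ± 0.0424) and Has1 (0.0234 ± 0.0157). Hyal2 and Vcan, as neighbours in the second order, differ by less than the SD of Vcan, and Hyal1 and Has2 in the first by less than 2 SD of Hyal1. Has2 was thus above Hyal1 in the KO-labelled libraries alone, and Vcan above Ugdh in the WT-labelled ones alone. The levels rest on exon lengths of the annotation and not on the isoforms present.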

How the data were processed

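RNAseq was measured in 6 libraries of polyadenylated RNA, 3 labelled WT and 3 labelled KO. The authors deposited raw counts of reads per gene, and log2 CPM values that follow limma's voom, the log2 of a count plus 0.5 scaled by the library. The submitters' processing notes name STAR 2.7.2b, featureCounts, limma and GRCm38.p6. Strand setting and annotation release are not given in the sources used here. Of 14831 identifiers, 14515 match GENCODE M21 with the version.

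Counts were tested here with edgeR 4.0.16 in R 4.3.3 (TMM scaling, filterByExpr, quasi-likelihood F test, labelled KO against labelled WT), with Benjamini-Hochberg adjustment over 14289 genes. Calls needed an adjusted p under 0.05 and a 1.5-fold change. Standard errors come from the fold change and its F statistic. The floor is 3 counts, and floors cover counting error only. With 3 against 3, an exact permutation test cannot give a two-sided p under 0.1. Replicates of a group differed beyond sampling noise (chi-square per degree of freedom 2.50 to 7.74), so all were kept. The edgeR fit was checked on simulated counts.

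The members and lists were chosen with earlier results of these data known. Named were the 9 members, Gli1 to Gli3, Has2os, in each of 7 lists up to 5 called genes with at least 50 counts in each library of the higher group, by absolute log2 fold change, and the highest CPM among those not called, genes of overlapping exons, and the 3 nearest profiles of the 2 members that changed most with at least 100 counts per library. Other genes of the lists and the markers are named outside this rule, after their values were seen. Alternatives were scaling by RLE, by the upper quartile or by totals, a looser or stricter count filter, another fold limit, glmTreat, DESeq2 1.42.0, limma-voom, limma 3.58.1 on the deposited log2 values, and leaving out each library.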

Additional observations from a re-analysis of the deposited data

How the results depend on the processing

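The 4 members called (Has1, Has2, Hmmr and Vcan) were 4 under 15 of 17 alternatives, were 3 under a minimum of 10 counts per library, which left Has1 untested, and were 5 with no fold limit, which added Ugdh. Leaving out single libraries gave 4 each time. Of the 76 other genes tested 28 were called, and 60 without the fold limit (35 higher, 25 lower); the other alternatives gave 24 to 30, and leaving out a library 27 to 30. The log2 fold change of Has3 ran from -0.0081 to 0.63 with a library left out, changing sign without labelled KO replicate 3, and that of Hyal2 from -0.012 to 0.030, changing sign without labelled WT replicate 3 or labelled KO replicate 1; the cause was not tested. Cd44 had an adjusted p under 0.05 in 3 of 14 alternatives (lowest 0.00964) and Hyal1 in 1 of 14 (0.0212), with log2 fold changes of at most 0.11 and 0.40. Depth limits Has1 and Has3, with 41 and 30 counts or fewer in every library. Upper-quartile scaling moved the median log2 fold change of all genes to 0.0588. No paired analysis was possible because the labels give no replicate numbers that the groups share. The replicate numbers used here follow the order of the libraries within each group.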
